A study of Mus musculus with 14 samples.

Results

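Mouse oocytes that overexpressed Rnaseh1 together with Supt6 were compared with oocytes that overexpressed mCherry, a red fluorescent protein used as the control, and the question was which genes stayed changed after Supt6 had been added to Rnaseh1. The comparison held 2 libraries per group, so it set 4 of the 14 libraries of the series against each other. Another group of 2 libraries, with Rnaseh1 alone, belongs to the same rescue set of 6 libraries and showed what had changed without Supt6. All 6 libraries entered the estimate of the spread behind each test. The other 8 libraries came from oocytes with a non-surrounded (NSN) or surrounded (SN) nucleolus and carried mCherry or Rnaseh1. For the rescue set the labels gave polyadenylated RNA and the overexpressed genes, and no oocyte stage, strain or age, nor the animals or pools behind each library, so every p-value measured only the spread between libraries. Levels are given as TPM, transcripts of a gene scaled to a fixed total per library, a unit that does not carry the read depth. Of the 35341 genes listed for the rescue set, 12859 reached 1 TPM in 2 or more of the 6 libraries and were tested, and 22482 were not. At the edge of that filter, 24 genes had a second-highest TPM of exactly 1 and 20 genes had 0.99.

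RNase H1 degrades RNA that is paired with DNA, as in the R-loops that form behind transcribing RNA polymerase II. SPT6, the product of Supt6, binds histones and the elongating polymerase, and its binding helps SETD2 to place trimethylation on lysine 36 of histone H3 (H3K36me3) over gene bodies. In growing oocytes H3K36me3 guides DNA methylation and keeps the promoter mark H3K4me3 from spreading, and the fully grown oocyte then falls silent and relies on stored maternal mRNA.

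The libraries carried the RNA of oocytes. All 13 oocyte markers listed for the rescue set reached 1 TPM in every library, and their summed level was 16950 and 18087 TPM with mCherry, 5943 and 5663 TPM with Rnaseh1 alone and 17432 and 18376 TPM with Rnaseh1 plus Supt6. Of 19 granulosa and cumulus cell markers, 3 to 5 per library reached 1 TPM, their sum lay between 45.9 and 55.9 TPM in all 6 libraries and most of it was Cyp19a1, while Foxl2, Amh and Amhr2 were listed at 0 throughout. The 12 stromal and endothelial markers summed to 37.4 and 41.5 TPM with mCherry, 12.9 and 16.9 TPM with Rnaseh1 alone and 37.9 and 40.02 TPM with both genes, most of it Pecam1 with mCherry and with both, and the 12 blood and immune markers stayed under 6 TPM in every library. Pecam1 was at 29.97 and 31.77 TPM with mCherry, 5.52 and 9.26 TPM with Rnaseh1 alone and 29.4 and 31.35 TPM with both. Tek stayed between 3.54 and 5.75 TPM, and Cdh5, Col1a2, Col3a1 and Lum were listed at 0 in all 6 libraries. In such bulk RNA, fewer cells of a type and less RNA per cell cannot be told apart. Across the 12859 genes the libraries with Rnaseh1 plus Supt6 correlated with the mCherry libraries at r = 0.969 to 0.971 and with the Rnaseh1 libraries at r = 0.870 to 0.872, against 0.984 within mCherry and 0.989 within Rnaseh1 plus Supt6. These correlations are across genes of one organism and carry no test.

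Both overexpressed genes stood out in the libraries named for them. Supt6 (ENSMUSG00000002052.6; GRCm38 chr11:78206746-78245987) was at 3.28 and 3.14 TPM with mCherry, 3.01 and 2.55 TPM with Rnaseh1 alone and 28.2 and 21.0 TPM with Rnaseh1 plus Supt6. The last pair lay far above the other 4 libraries, with a log2 fold change over mCherry of 2.59 (SE 0.23, limma adjusted p = 0.0028). Rnaseh1 (ENSMUSG00000020630.9; chr12:28649602-28659589) was at 125 and 114 TPM with mCherry, 1243 and 625 TPM with Rnaseh1 alone and 2270.5 and 2017 TPM with both, a log2 fold change of 4.15 over mCherry (SE 0.28, limma adjusted p = 0.0018). The Rnaseh1 level was also higher with Supt6 than without it, by 1.28 on the log2 scale (SE 0.28, limma adjusted p = 0.0062), so both treatments did not carry the same amount of Rnaseh1 mRNA.

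**Figure D1:**
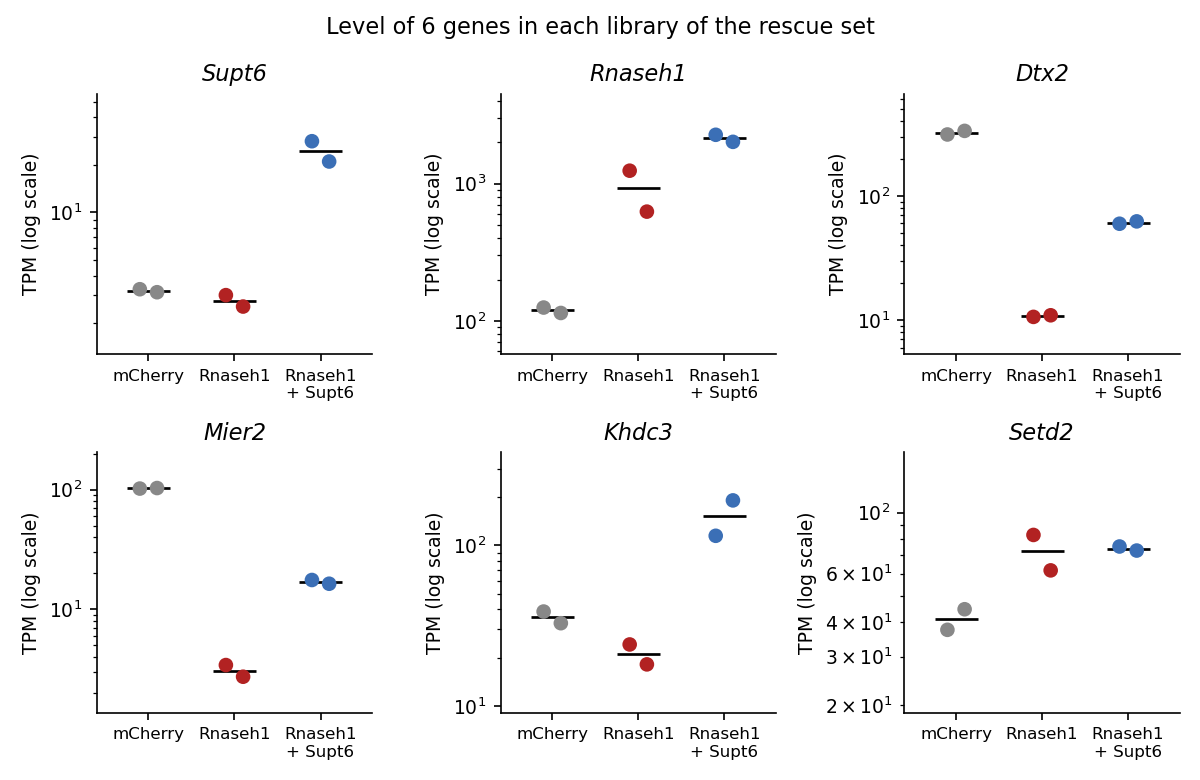
TPM on a log axis in each of the 6 rescue libraries for Supt6, Rnaseh1, Dtx2, Mier2, Khdc3 and Setd2, with 1 point per library and a bar at the group mean. Dtx2 and Mier2 with Rnaseh1 plus Supt6 lie between the Rnaseh1 and the mCherry libraries, Khdc3 lies above both, and Setd2 lies beside the Rnaseh1 libraries.

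Of the 6 genes plotted, Dtx2, Mier2 and Setd2 stayed changed in the sense that they differed from mCherry in the same direction with and without Supt6, as did the overexpressed Rnaseh1. Their upstream sequence is shown because the first pair stayed lower and Setd2 stayed higher. The windows come from RefSeq (GRCm38.p6), end at the base before the annotated gene start, and run from 5′ to 3′ on the gene's strand. Capitals mark each CG dinucleotide, the unit at which DNA is methylated. The windows are chr5:135994550-135994799 on the plus strand for Dtx2, chr10:79555200-79555378 on the minus strand for Mier2 and chr9:110532347-110532596 on the plus strand for Setd2.
Dtx2: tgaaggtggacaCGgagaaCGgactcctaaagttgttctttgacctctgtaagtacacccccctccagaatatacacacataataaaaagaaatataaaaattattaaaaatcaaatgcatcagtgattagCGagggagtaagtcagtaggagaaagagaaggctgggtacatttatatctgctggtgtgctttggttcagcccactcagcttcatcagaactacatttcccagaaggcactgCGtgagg
Mier2: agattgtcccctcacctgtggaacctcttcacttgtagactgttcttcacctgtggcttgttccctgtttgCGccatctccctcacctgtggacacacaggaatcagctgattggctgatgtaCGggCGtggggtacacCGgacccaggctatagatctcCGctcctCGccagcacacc
Setd2: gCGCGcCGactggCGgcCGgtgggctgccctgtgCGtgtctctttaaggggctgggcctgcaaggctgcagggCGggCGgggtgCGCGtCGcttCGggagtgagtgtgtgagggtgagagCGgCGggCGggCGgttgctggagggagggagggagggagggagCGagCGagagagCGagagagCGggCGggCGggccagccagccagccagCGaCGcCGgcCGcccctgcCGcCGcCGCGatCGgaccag
The Dtx2 window held 4 CG dinucleotides in 250 bases, with 42.0% G or C. The Mier2 window held 6 in 179 bases, with 56.4% G or C, and was cut short where an annotated transcript begins. The Setd2 window held 31 in 250 bases, with 76.0% G or C. Among 27025 RefSeq windows of 250 bases the median was 6 CG dinucleotides, the quartiles were 2 and 16, and 91.7% held at least 1, searched as CG, which reads the same on both strands. The Dtx2 window thus lay between the lower quartile and the median, and the Setd2 window above the upper quartile. RefSeq windows were at hand for 75.3% of the genes tested, which was too few to compare the genes that changed with the rest.

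Dtx2 and Mier2 recovered in part. Dtx2 (ENSMUSG00000004947.15; chr5:135994800-136032872), an E3 ubiquitin ligase of the Deltex family that acts in Notch signalling, was at 312 and 334 TPM with mCherry, 10.6 and 10.9 TPM with Rnaseh1 alone and 59.7 and 62.3 TPM with both. The 3 groups did not overlap. Dtx2 fell by 4.78 on the log2 scale without Supt6 and by 2.39 with it (SE 0.10 each, limma adjusted p = 0.000925 for the latter), and the difference of 2.40 between both treatments passed the test as well. Mier2 (ENSMUSG00000042570.14; chr10:79540245-79555199), a corepressor that binds histone deacetylases, was at 102 and 103 TPM with mCherry, 3.43 and 2.74 TPM with Rnaseh1 alone and 17.6 and 16.4 TPM with both. It fell by 4.67 without Supt6 and by 2.53 with it (SE 0.16 each, limma adjusted p = 0.0015), and was 2.14 higher on the log2 scale with Supt6 than without. Both genes remained past the threshold under every alternative computed.

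Khdc3 and Setd2 did something else. Khdc3 (ENSMUSG00000092622.8; chr9:73101836-73104438), a KH-domain protein of the subcortical maternal complex, was at 38.7 and 32.7 TPM with mCherry, 24.1 and 18.1 TPM with Rnaseh1 alone and 114 and 190 TPM with both. It fell by 0.74 without Supt6 (limma adjusted p = 0.035) and rose by 2.02 with it (SE 0.25, limma adjusted p = 0.0060). The rise kept its size and lost its call without mCherry replicate 2 (1.90, limma adjusted p = 0.066) and without Rnaseh1 plus Supt6 replicate 2 (1.66, limma adjusted p = 0.058). Setd2 (ENSMUSG00000044791.16; chr9:110532597-110618633), the enzyme that trimethylates H3K36, was at 37.5 and 44.6 TPM with mCherry, 83.0 and 61.7 TPM with Rnaseh1 alone and 75.3 and 72.8 TPM with both. It rose by 0.79 without Supt6 and by 0.84 with it (SE 0.16 each, limma adjusted p = 0.021 for the latter), and the difference of 0.05 between both treatments did not pass (limma adjusted p = 0.81). With Supt6 the Setd2 call ended without the filter on low values and when any of the 4 libraries compared was left out, with limma adjusted p-values from 0.061 to 0.15.

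Over all genes, 1711 of 12859 differed between Rnaseh1 plus Supt6 and mCherry, which is 13.3%. Of these, 734 (5.71% of the genes tested) rose and 977 (7.6%) fell. At least a 2-fold change on the scale of log2(TPM + 1) was found for 96 of the genes that rose (0.747%) and 487 of the genes that fell (3.79%). With Rnaseh1 alone, 8553 genes (66.5%) differed from mCherry, 2608 upwards (20.3%) and 5945 downwards (46.2%). The median absolute log2 fold change over all genes was 0.29 with Supt6 and 0.98 without, and 762 against 6327 genes had moved by at least 1. Comparing both Rnaseh1 treatments directly, 7578 genes (58.9%) differed, 5343 of them (41.6%) higher and 2235 (17.4%) lower with Supt6. The libraries of Rnaseh1 plus Supt6 and of mCherry did not overlap for 7887 genes (61.3%), and 3612 had an unadjusted p under 0.05.

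Those counts rested on 2 libraries per group and on a spread estimated from all 6 libraries. With the 4 libraries compared fitted alone, 1001 genes were higher and 1463 lower. Leaving out 1 of the 4 libraries compared left 1 library in a group, assumed to vary like the others, and far fewer genes passed. Without mCherry replicate 1 there were 127 higher and 132 lower genes, without mCherry replicate 2 there were 85 and 76, without Rnaseh1 plus Supt6 replicate 1 there were 49 and 72, and without Rnaseh1 plus Supt6 replicate 2 there were 24 and 41. Of 100 named genes that were called with all libraries, between 15 and 41 kept their call and none of the 100 changed direction. Removing the trend of the fold changes with GC content gave 904 higher and 512 lower, so the share of higher genes among the calls went from 42.9% to 63.8%. Centring the libraries on the median took it to 53.2%.

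When 1 of the same 4 libraries was left out, between 63 and 238 genes stayed changed, against 1437 with all libraries. Of the 1711 genes, those 1437 (11.2% of all tested) were called in the same direction against mCherry with and without Supt6. They made up 84.0% of the genes called with Supt6 and 16.8% of those called without. Of the genes that stayed changed, 531 (4.13%) stayed higher and 906 (7.05%) stayed lower. Both comparisons share the mCherry libraries, so the overlap is a description with no test. Genes that stayed higher had a median log2 fold change of 0.60 with Supt6 and 1.64 without, and genes that stayed lower had -0.996 with Supt6 and -2.40 without.

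**Figure D2:**
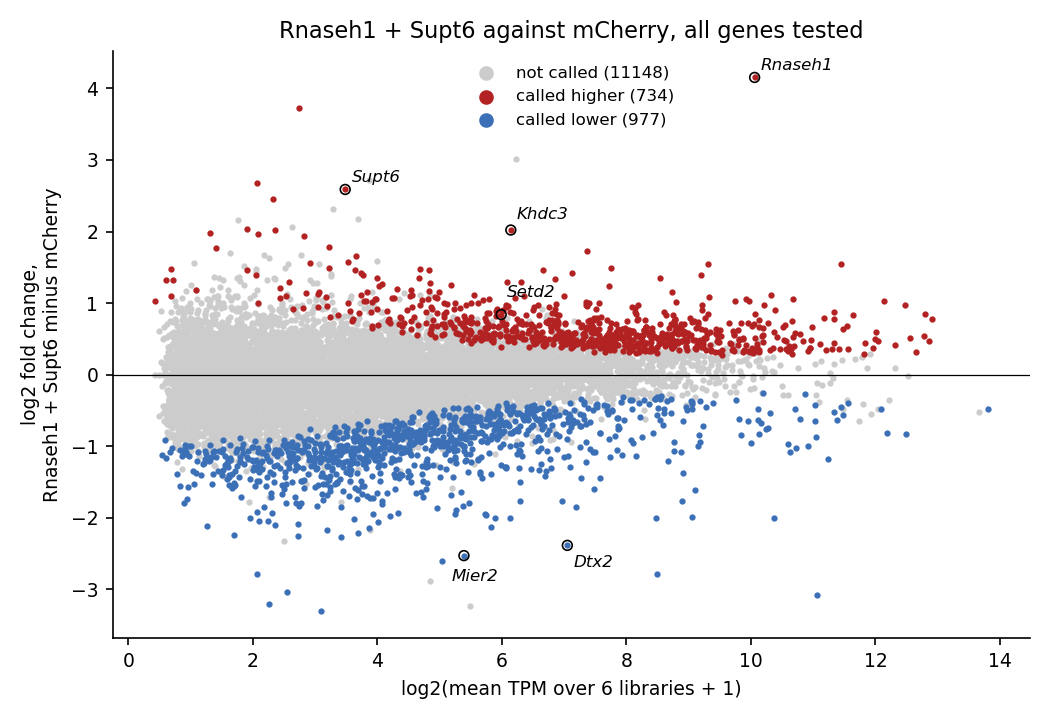
Log2 fold change of Rnaseh1 plus Supt6 over mCherry (y axis) against log2 of the mean TPM over the 6 libraries plus 1 (x axis), with 1 point for each of the 12859 genes tested, red where higher (734), blue where lower (977) and grey where not called. Falls reach further than rises at most levels, apart from Rnaseh1, Supt6, Khdc3 and a few genes of low level.

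Other genes that stayed lower recovered in part as well. Pex14, a docking protein of peroxisomal import, was at 80.6 and 82.9 TPM with mCherry, 0.44 and 1.39 TPM with Rnaseh1 alone and 12.0 and 13.3 TPM with both, a log2 fold change of -2.60 with Supt6 and -5.48 without. Kcnh3, a voltage-gated potassium channel, went from 18.5 and 29.0 TPM with mCherry to 5.03 and 3.19 TPM with both (log2 fold change -2.27, limma adjusted p = 0.0070). Baiap2l2, a membrane-bending protein of the I-BAR family, had a log2 fold change of -2.26 (limma adjusted p = 0.0056). Like Dtx2 and Mier2, these 3 genes were higher with Supt6 than with Rnaseh1 alone in the direct test.

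For Atg9a and Tmem184b, also among the genes with the largest falls, the direct test of Rnaseh1 plus Supt6 against Rnaseh1 did not pass. Atg9a, a lipid scramblase of autophagy, was at 8.01 and 8.56 TPM with mCherry, 1.27 and 0.68 TPM with Rnaseh1 alone and 0.40 and 0.30 TPM with both. The log2 fold change was -2.78 with Supt6 and -2.25 without, and the difference of -0.53 did not pass (SE 0.26, limma adjusted p = 0.12). Tmem184b, a transmembrane protein, was at 25.02 and 27.6 TPM with mCherry, 5.58 and 3.53 TPM with Rnaseh1 alone and 5.44 and 4.34 TPM with both (log2 fold changes of -2.32 without and -2.22 with Supt6). These levels are low, and the offset of 1 TPM in the log scale understates changes of such genes.

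Fewer genes stayed far above mCherry. Slc24a5, a sodium, potassium and calcium exchanger of pigment cells, was listed at 0 in both mCherry libraries, at 2.62 and 4.10 TPM with Rnaseh1 alone and at 2.83 and 9.61 TPM with both. Its call ended without the filter on low values and when either mCherry library or Rnaseh1 plus Supt6 replicate 2 was left out. Per3, a circadian clock protein, was at 30.4 and 52.4 TPM with mCherry, 311 and 323 TPM with Rnaseh1 alone and 116 and 155 TPM with both, so it lay between the other groups (log2 fold change 1.73). Lsm4, a subunit of the ring that binds U6 RNA in the spliceosome, was at 3.11 and 4.75 TPM with mCherry and between 12.1 and 15.04 TPM in all 4 libraries with Rnaseh1 (log2 fold change 1.58, limma adjusted p = 0.0095). Paip1, which binds the poly(A)-binding protein, was at 96.8 and 215 TPM with mCherry, 1362 and 1250.0 TPM with Rnaseh1 alone and 308 and 586 TPM with both. Its rise of 1.55 only just passed (limma adjusted p = 0.047), with a wide gap between the libraries of a group. Atad3aos, an antisense RNA, was also among the 10 largest rises, but the use of strand in the counting is not stated, so it cannot be told apart from its partner gene.

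**Figure D3:**
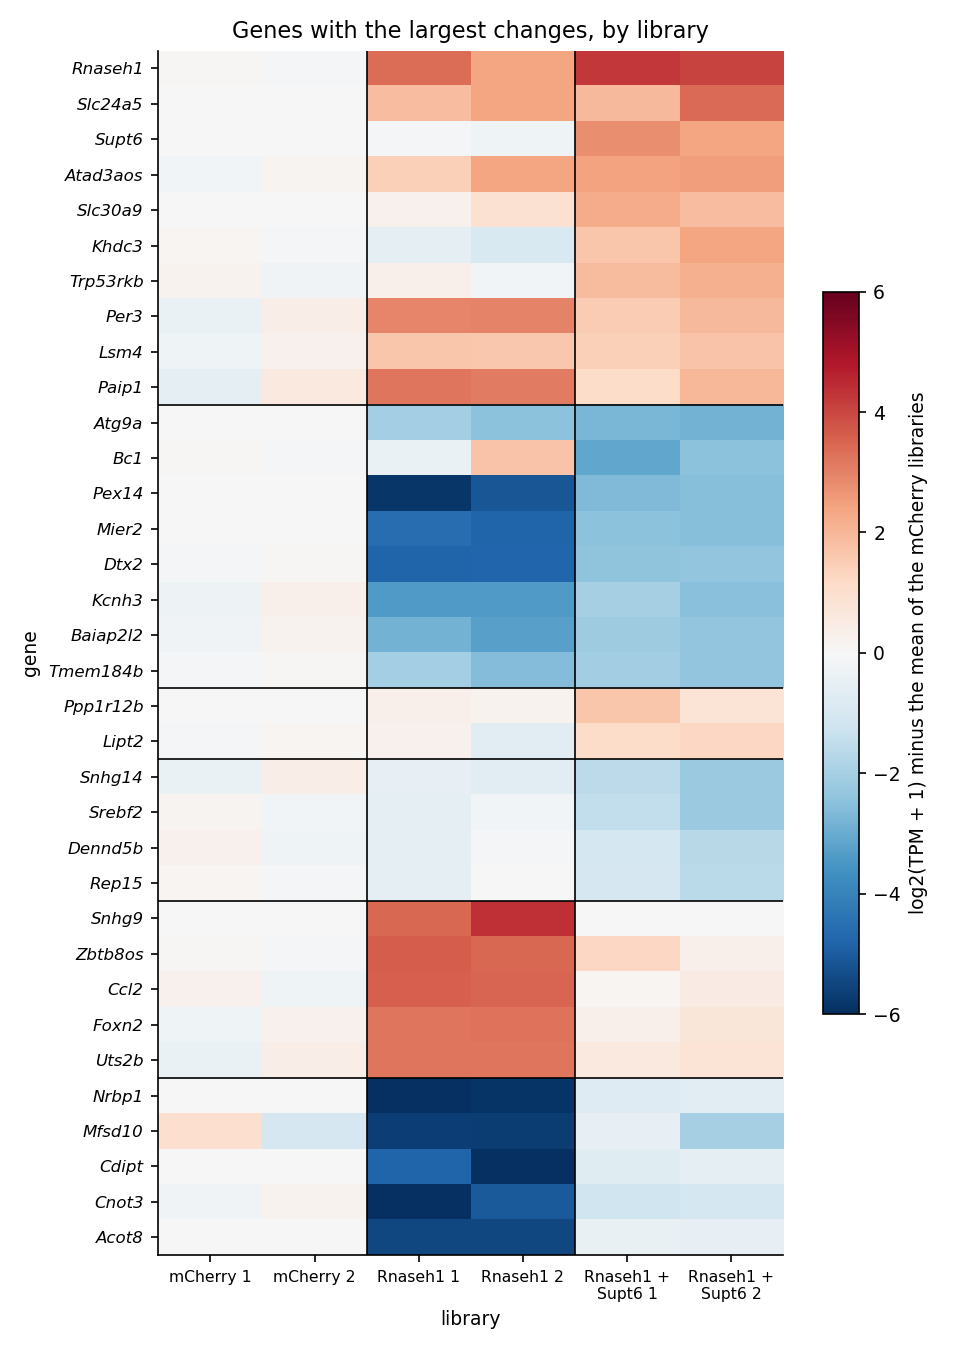
Log2(TPM + 1) minus the mean of the mCherry libraries in each of the 6 libraries (columns) for the named genes (rows), from blue (lower) to red (higher), with colours that saturate at 6 and lines between the blocks of genes chosen by different parts of the naming rule. Dtx2, Mier2 and Pex14 are paler with Supt6 than with Rnaseh1 alone, whereas Tmem184b is equally blue in both.

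Some genes were called only once Supt6 had been added. Against mCherry, 85 genes (0.661%) were called higher and 62 (0.482%) lower with Supt6 and not without. The direct test of Rnaseh1 plus Supt6 against Rnaseh1 called 70 (0.544%) and 43 (0.334%) of them in the same direction. Slc30a9, a zinc transporter family member, was at 0.71 and 0.67 TPM with mCherry, 0.99 and 2.16 TPM with Rnaseh1 alone and 6.89 and 5.07 TPM with both (log2 fold change 2.03, limma adjusted p = 0.010). Trp53rkb, a kinase of the complex that modifies transfer RNA, was at 1.95 and 1.14 TPM with mCherry and 8.51 and 9.92 TPM with both (log2 fold change 2.02), but it has a near-identical copy and its value is uncertain. Ppp1r12b, a myosin phosphatase subunit, and Lipt2, which acts in lipoic acid synthesis, rose by 1.23 and 1.17.

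Bc1, a short noncoding RNA best known from neurons, led the genes lowered only with Supt6. Bc1 was at 360 and 321 TPM with mCherry, 262 and 1114 TPM with Rnaseh1 alone and 38.3 and 61.7 TPM with both, a log2 fold change of -2.78 (SE 0.59, limma adjusted p = 0.027). The call ended without the filter on low values and when any of the 4 libraries compared was left out. Srebf2, the transcription factor that drives cholesterol synthesis genes, was at 238 and 186 TPM with mCherry, 138 and 186 TPM with Rnaseh1 alone and 75.6 and 44.2 TPM with both. Its log2 fold change with Supt6 was -1.85 (limma adjusted p = 0.0090), and no library with both genes overlapped the others. Snhg14, a snoRNA host transcript, fell by 1.90 with Supt6. Dennd5b and Rep15, both linked to Rab GTPases in membrane traffic, fell by 1.36 and 1.31 at levels under 9 TPM.

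Some genes were called in opposite directions against mCherry. There were 118 (0.918%) that were lower with Rnaseh1 alone and higher with Supt6, as Khdc3 was, and 9 (0.07%) that were higher without and lower with Supt6. Nlrp5, another protein of the subcortical maternal complex, was at 457 and 624 TPM with mCherry, 269 and 278 TPM with Rnaseh1 alone and 842 and 942 TPM with both. Its log2 fold change was -0.96 without Supt6 and 0.74 with it (limma adjusted p = 0.021 for the latter). Kdm5a, an H3K4 demethylase, went the other way, at 44.1 and 37.4 TPM with mCherry, 96.7 and 129 TPM with Rnaseh1 alone and 26.9 and 17.8 TPM with both. Its fall of 0.86 with Supt6 just passed (limma adjusted p = 0.048).

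For contrast, the genes that moved furthest with Rnaseh1 alone and were no longer called with Supt6 are described here. Nrbp1, a pseudokinase, was at 138 and 147 TPM with mCherry, 0.59 and 1.43 TPM with Rnaseh1 alone and 82.9 and 89.4 TPM with both. Its log2 fold change went from -6.19 to -0.72, and the latter missed the threshold (SE 0.21, limma adjusted p = 0.066), although both libraries lay below mCherry. Acot8, a peroxisomal thioesterase, was at 72.4 and 77.0 TPM with mCherry, 0.74 and 0.71 TPM with Rnaseh1 alone and 55.0 and 53.5 TPM with both (log2 fold change -0.45). Cnot3, a subunit of the main mRNA deadenylase complex, was at 102 and 135 TPM, 0.84 and 2.63 TPM, and 50.9 and 56.9 TPM in the same order, with a log2 fold change of -1.11 (limma adjusted p = 0.062). A missed threshold therefore did not mean a full return: for Cnot3 the level with Supt6 was still under that of either mCherry library. Ccl2, a chemokine, was at 12.6 and 8.28 TPM with mCherry, 134 and 124 TPM with Rnaseh1 alone and 11.1 and 14.8 TPM with both, so the last group overlapped mCherry. Snhg9, a snoRNA host transcript, was listed at 0 in the mCherry libraries and in those with both genes, and at 10.02 and 19.7 TPM with Rnaseh1 alone. Its transcript has only 183 bases, and the mCherry libraries of SN oocytes had it at 42.76 and 0 TPM. Foxn2, Zbtb8os and Uts2b, also higher with Rnaseh1 alone, were not called with Supt6. Their libraries with both genes still lay above both mCherry libraries (log2 fold changes of 0.53, 0.78 and 0.70).

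The first lists hold factors of transcription elongation, which include SPT6 itself, and their calls were near the share over all genes. In the lists below, 5.71% of all genes were higher and 7.6% lower with Supt6, around a median log2 fold change of -0.04, and with Rnaseh1 alone these values were 20.3%, 46.2% and -0.52. Of 12 SPT and FACT factors, Supt6 rose and Supt5, a subunit of the DSIF elongation factor, fell by 1.03, from 24.2 and 29.1 TPM to 12.1 and 12.8 TPM. The list's median was -0.08, and 3 rose and 4 fell with Rnaseh1 alone. None of 6 subunits of the PAF1 complex was called (median 0.27, with 2 higher and 3 lower with Rnaseh1 alone). Of 19 factors of polymerase pausing and pause release, Ell and Nelfa fell, with log2 fold changes of -1.60 and -1.298, and none rose. The list's median was -0.23, against 3 higher and 11 lower with Rnaseh1 alone. Nelfa encodes a subunit of NELF, which holds the polymerase paused. It was at 138 and 131 TPM with mCherry, 11.4 and 8.84 TPM with Rnaseh1 alone and 53.6 and 54.7 TPM with both.

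Of 13 core subunits of RNA polymerase II, 5 rose and none fell with Supt6 (median 0.32), and 6 rose and 4 fell without. The genes that rose were the small subunits Polr2d, Polr2g, Polr2i, Polr2j and Polr2k. Polr2k was at 562 and 513 TPM with mCherry, 2089 and 1909 TPM with Rnaseh1 alone and 686 and 678 TPM with both (log2 fold change 0.34). Polr2i was at 297 and 309 TPM, 864 and 738 TPM, and 487 and 398 TPM in the same order (log2 fold change 0.54).

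Enzymes that write and erase H3K36 and H3K4 methylation followed. Of 9 H3K36 methyltransferases, Setd2 alone rose and none fell with Supt6 (median 0.01), whereas 5 fell with Rnaseh1 alone. Of 5 H3K36 demethylases, 2 fell and none rose with Supt6 (median -0.72). Kdm2a was low, at 4.43 and 5.76 TPM with mCherry, 4.08 and 4.32 TPM with Rnaseh1 alone and 1.81 and 1.61 TPM with both, and fell by 1.16. Kdm2b fell by 0.62 with Supt6 and by 0.65 without. Of 15 H3K4 methyltransferases and their partners, 5 fell and 1 rose with Supt6, with a median of -0.44, and 12 fell and 2 rose without. The methyltransferase Kmt2d fell by 1.33, its partner menin (Men1) by 1.02, Cxxc1 by 0.83, Wdr5 by 0.82 and Rbbp5 by 0.77. Men1 was at 26.6 and 30.7 TPM with mCherry, 4.49 and 3.91 TPM with Rnaseh1 alone and 13.7 and 13.4 TPM with both. Dpy30, the small subunit shared by these complexes, rose by 0.55, from 365 and 350 TPM to 540 and 509 TPM. Of 6 H3K4 demethylases only Kdm5a was called.

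Readers of H3K36me3 and the DNA methylation machinery gave 5 lower and 1 higher of 17 with Supt6 (median -0.16), against 11 and 5 without; measured from the median of all genes, the list lay at -0.13, and at 0.02 once the GC trend was removed. Uhrf1, which brings the maintenance methyltransferase to DNA, was at 248 and 294 TPM with mCherry, 25.3 and 19.6 TPM with Rnaseh1 alone and 75.3 and 83.2 TPM with both (log2 fold change -1.76). Dnmt1, that methyltransferase, was at 247 and 389 TPM, 71.7 and 72.0 TPM, and 141 and 151 TPM in the same order (log2 fold change -1.09). Phf1, a Polycomb-associated reader, was at 111 and 132 TPM with mCherry and 30.5 and 30.7 TPM with both, and fell by 1.95. Tet3, the dioxygenase that oxidises methylcytosine, and Zfp57, which guards imprints, fell by 0.65 and 0.26. Dppa3, which protects the maternal genome from changes in methylation, was at 3676 and 3548 TPM with mCherry, 13070.1 and 13559 TPM with Rnaseh1 alone and 6169 and 6249 TPM with both (log2 fold change 0.78).

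The lists to which Mier2, Dtx2 and Rnaseh1 belong showed few other calls. Of 20 Mier, HDAC and corepressor genes, Mier2 fell and Rbbp7, a histone-binding subunit, rose by 0.37 (median -0.23), whereas 15 fell with Rnaseh1 alone. Of 14 Deltex and Notch pathway genes, 4 fell and none rose (median -0.15). They included Dtx2, the gamma-secretase subunit Aph1a, lower by 1.17, and the Notch ligand Jag2, lower by 1.11. Of 26 R-loop resolving factors, Rnaseh1 itself rose and no other was called (median 0.00), against 4 higher and 10 lower with Rnaseh1 alone.

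**Figure D4:**
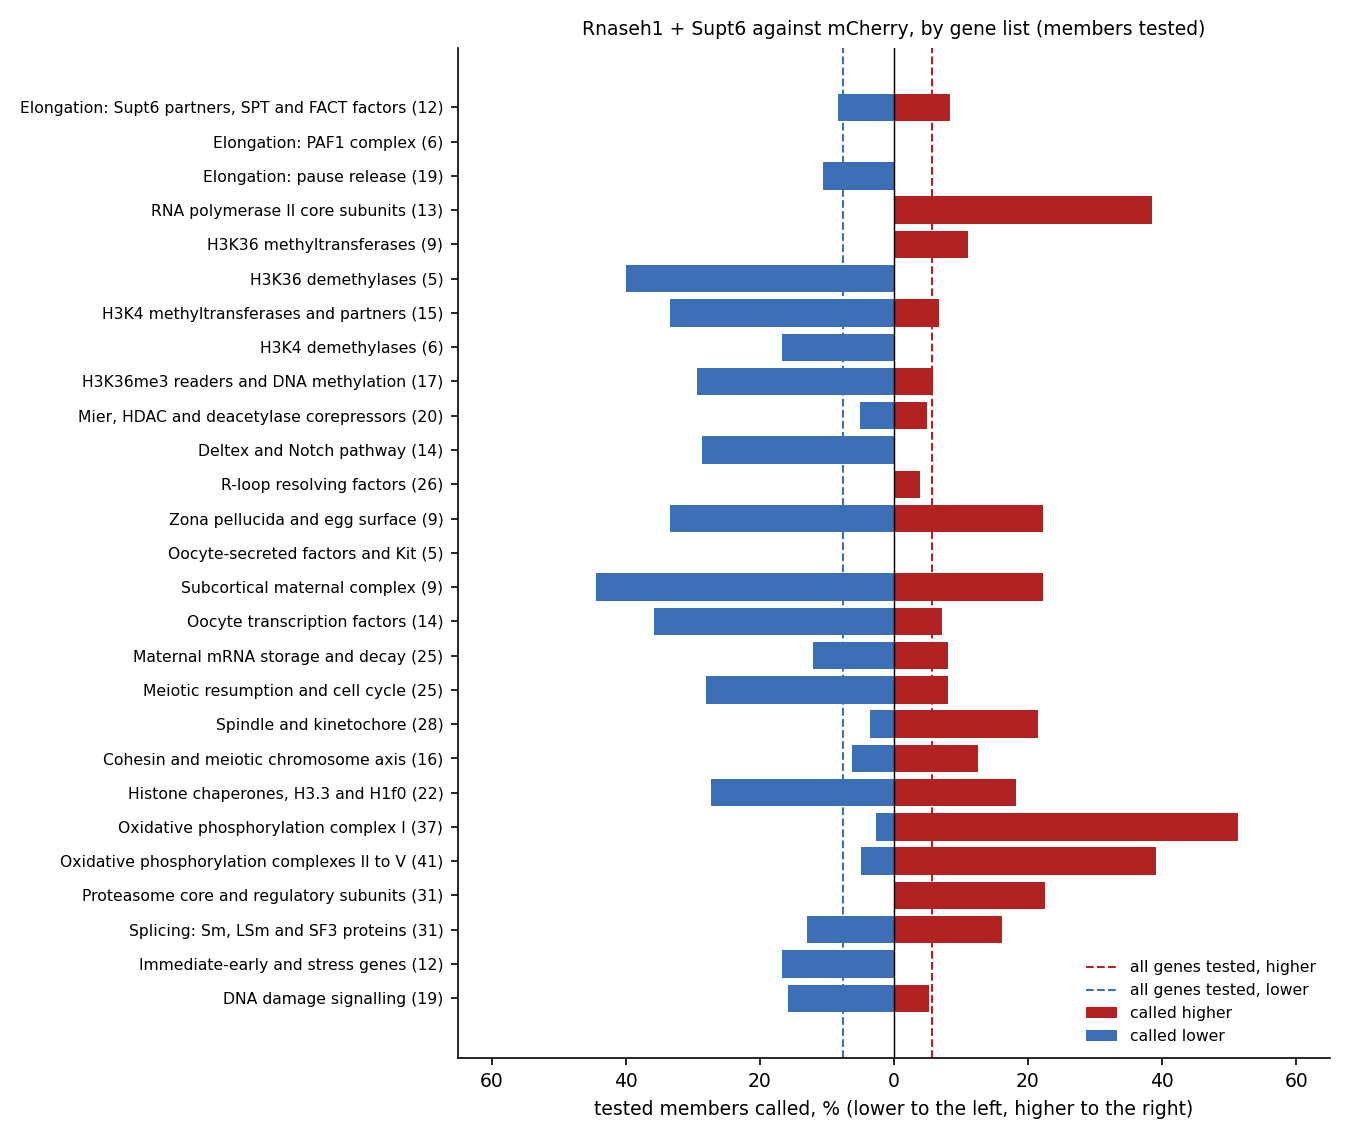
Percent of the tested members of each gene list called lower (blue, to the left) or higher (red, to the right) in Rnaseh1 plus Supt6 against mCherry, with the number of members tested in parentheses. Dashed lines mark all genes tested (7.6% lower, 5.71% higher), and the longest red bars are those of oxidative phosphorylation complex I (19 of 37), complexes II to V (16 of 41) and the core subunits of RNA polymerase II (5 of 13).

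Genes of the oocyte itself moved both ways. In the list for the subcortical maternal complex, a protein assembly that embryos need for cleavage, 2 of 9 genes rose and 4 fell with Supt6 (median -0.29), whereas 1 rose and 8 fell without. Khdc3 and Nlrp5 were the genes that rose. Tle6 was at 3320 and 3703 TPM with mCherry, 1919 and 1666 TPM with Rnaseh1 alone and 2356 and 2522 TPM with both, and fell by 0.52. Ooep and Padi6 fell by 0.50 and 0.47. Oog1, on the list but not an established subunit of the complex, fell by 1.08. It belongs to a multigene family whose copies may share reads. Of 9 zona pellucida and egg surface genes, 2 rose and 3 fell (median -0.10), against 1 and 7 without Supt6; measured from the median of all genes, the list lay at -0.06, and at 0.12 once the GC trend was removed. Zp3, a protein of the zona pellucida, was at 3002 and 3157 TPM with mCherry, 583 and 567 TPM with Rnaseh1 alone and 3859 and 4054 TPM with both. It thus passed the mCherry level (log2 fold change 0.36). Izumo1r (Juno), the egg's receptor for the sperm protein IZUMO1, was at 485 and 521 TPM, 66.7 and 58.8 TPM, and 252 and 265 TPM in the same order, and fell by 0.96. None of 5 oocyte-secreted factors and Kit was called with Supt6. Gdf9 was at 6572 and 7032 TPM with mCherry, 1385 and 1170 TPM with Rnaseh1 alone and 7142 and 7397 TPM with both.

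Of 14 oocyte transcription factors, 1 rose and 5 fell with Supt6 (median -0.20), against 4 and 7 without. Pou5f1, the pluripotency factor OCT4, was at 263 and 249 TPM with mCherry, 9.50 and 11.8 TPM with Rnaseh1 alone and 120 and 109 TPM with both (log2 fold change -1.15). Nobox, needed for follicle growth, fell by 0.41, and the Obox family members Obox1, Obox2 and Obox5, whose copies may share reads, by 0.56, 0.48 and 0.96. Gtf2a1l, a germ-cell form of the general factor TFIIA, rose by 0.97 with Supt6 and by 1.17 without. Of 25 genes of maternal mRNA storage and decay, 2 rose and 3 fell (median -0.20), against 4 and 17 without Supt6. Zar1, which binds stored mRNA, rose by 0.56 and Cnot9, a deadenylase complex subunit, by 0.74, while Cpeb1, which controls polyadenylation in the cytoplasm, fell by 0.56.

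Regulators of meiotic resumption were mostly lower and spindle genes mostly higher among the calls. Of 25 genes of meiotic resumption and the cell cycle, 2 rose and 7 fell with Supt6 (median -0.14), against 1 and 20 without. Pttg1 (securin), which holds separase inactive, was at 2271 and 2301 TPM with mCherry, 10157.7 and 10498 TPM with Rnaseh1 alone and 4448 and 4551 TPM with both (log2 fold change 0.98). Espl1, separase itself, fell by 1.34, from 39.3 and 49.5 TPM with mCherry to 16.7 and 17.0 TPM with both. Pkmyt1, an inhibitory kinase of CDK1, fell by 1.49 and Plk1, a mitotic kinase, by 0.79. Mos, the kinase that keeps the egg arrested, was at 896 and 863 TPM with mCherry, 45.1 and 41.5 TPM with Rnaseh1 alone and 678 and 672 TPM with both, and fell by 0.38.

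Of 28 spindle and kinetochore genes, 6 rose and 1 fell with Supt6 (median 0.10), against 7 and 15 without; measured from the median of all genes, the list lay at 0.14, and at -0.01 after quantile normalization. Spc24 and Spc25, partners in the NDC80 complex of the kinetochore, rose by 0.92 and 0.77. Spc24 was at 91.4 and 104 TPM with mCherry, 246 and 274 TPM with Rnaseh1 alone and 185 and 186 TPM with both. Haus1, of the augmin complex, was at 29.9 and 32.1 TPM, 554 and 565 TPM, and 46.9 and 56.5 TPM in the same order (log2 fold change 0.72). Of 16 cohesin and chromosome axis genes, 2 rose and 1 fell (median -0.01). Sycp1 and Sycp3, of the synaptonemal complex, rose by 1.19 and 0.92, and the meiotic cohesin subunit Stag3 fell by 1.49 at levels under 9 TPM.

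Of 22 genes of histone chaperones, histone H3.3 and the linker histone H1f0, 4 rose and 6 fell with Supt6 (median -0.28), against 8 and 13 without. The oocyte linker histone H1f8 was not among the 22. Asf1a, a chaperone of histones H3 and H4, was at 157 and 155 TPM with mCherry, 1189 and 1199 TPM with Rnaseh1 alone and 390 and 432 TPM with both. Its rise of 1.39 (limma adjusted p = 0.00096) remained past the threshold under every alternative computed. H3f3b, a gene for histone H3.3 with close copies, was at 1245 and 1150 TPM, 4221 and 4401 TPM, and 2180 and 2227 TPM in the same order (log2 fold change 0.88). H3f3a, another gene for histone H3.3, went the other way and was called lower with Supt6. Atrx, which places H3.3 in heterochromatin, fell by 1.10, from 91.5 and 91.2 TPM to 41.9 and 42.4 TPM. Npm2, which remodels sperm chromatin in the egg, fell by 0.62.

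Nuclear genes of oxidative phosphorylation had the largest count of higher genes among the lists described. For complex I, 19 of 37 subunits rose and 1 fell with Supt6 (median 0.41), and 30 rose and 5 fell without. Ndufa12 was at 93.8 and 85.3 TPM with mCherry, 1010.3 and 953 TPM with Rnaseh1 alone and 215 and 187 TPM with both (log2 fold change 1.16). Ndufb7 was at 146 and 139 TPM, 195 and 176 TPM, and 271 and 231 TPM in the same order (log2 fold change 0.81), so it was higher with Supt6 than with Rnaseh1 alone. For complexes II to V, 16 of 41 rose and 2 fell (median 0.32), and 25 rose and 11 fell without Supt6. Uqcr11, of complex III, was at 474 and 509 TPM with mCherry, 1612 and 1408 TPM with Rnaseh1 alone and 994 and 1021 TPM with both (log2 fold change 1.04). Uqcr10, of the same complex, rose by 1.02. The ATP synthase subunits Atp5a1 and Atp5d fell by 0.61 and 0.87.

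Of 31 proteasome subunits, 7 rose and none fell with Supt6 (median 0.13), against 10 and 18 without; measured from the median of all genes, the list lay at 0.17, and at -0.03 after quantile normalization. Psmb1 was at 360 and 316 TPM with mCherry, 1108 and 1092 TPM with Rnaseh1 alone and 522 and 497 TPM with both (log2 fold change 0.59). Among 31 splicing proteins of the Sm, LSm and SF3 families, 5 rose and 4 fell (median -0.07), against 15 and 12. Beside Lsm4, Lsm7 of the same ring rose by 1.11, from 240 and 226 TPM with mCherry to 550 and 463 TPM with both, after 3271 and 2910 TPM with Rnaseh1 alone. Snrpd2, a core Sm protein, rose by 0.69, and Snrnp70, of the U1 particle, fell by 1.01.

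Among 12 stress and immediate-early genes none rose and 2 fell (median -0.11), against 10 lower without Supt6; measured from the median of all genes, the list lay at -0.08, and at 0.06 once the GC trend was removed. Atf4, the transcription factor of the integrated stress response, was at 96.1 and 101 TPM with mCherry, 15.3 and 16.8 TPM with Rnaseh1 alone and 50.3 and 54.5 TPM with both (log2 fold change -0.90). Of 19 DNA damage signalling genes, 1 rose and 3 fell (median -0.05), against 3 and 11 without. Trp53bp1, a double-strand break protein, was at 314 and 307 TPM, 33.5 and 36.5 TPM, and 115 and 112 TPM in the same order (log2 fold change -1.45). Trp53 (p53) fell by 0.66 and Rpa3, of the single-strand binding complex, rose by 0.47. Rpa1, of the same complex as Rpa3, had a log2 fold change of -0.496. It went from 179 and 181.5 TPM with mCherry to 122 and 134 TPM with both.

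The genes called with Supt6, most of which stayed changed, also differed in sequence composition and level. Genes called lower with Supt6 had a median transcript GC content of 54.0%, genes called higher 46.5%, and all genes tested 48.5%. The median was 54.25% for genes that stayed lower and 45.65% for genes that stayed higher. Across 12582 genes with a matched transcript, the fold change with Supt6 went down as GC content went up (Spearman's rho = -0.32), as it did with Rnaseh1 alone (rho = -0.50). Where GC content was lowest (the lowest 10% of genes), the median log2 fold change was 0.13 with Supt6 and 0.43 without, and among the 10% with the highest it was -0.38 and -1.60. The share of genes called lower with Supt6 went from 1.9% among the lowest 10% to 20.7% among the highest, and the share called higher from 8.1% to 2.54%. Transcripts called higher were shorter (median 1921 bases) than those called lower (3169 bases) and than all tested (2988.5 bases). Genes called higher were also more abundant in mCherry (median 106 TPM) than those called lower (38.3 TPM) and than all tested (12.5 TPM). Genes share libraries, so these relations are descriptions without a test, and the part of GC content and length in the calls was not tested.

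**Figure D5:**
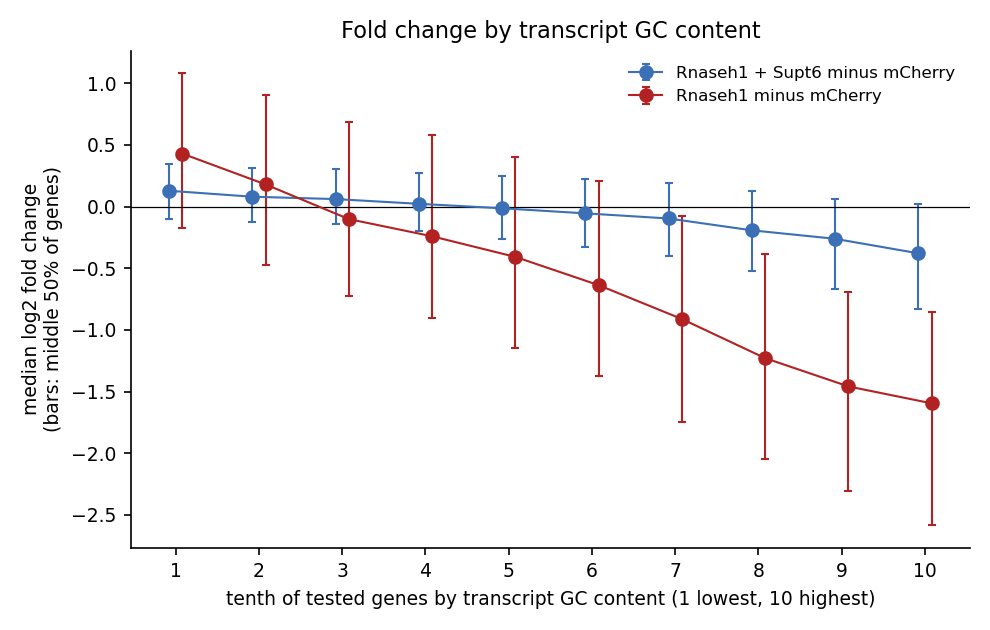
Median log2 fold change over mCherry (points) and the middle 50% of genes (bars) in 10 equal bins of the tested genes ordered by transcript GC content, for Rnaseh1 plus Supt6 (blue) and Rnaseh1 alone (red). The medians with Rnaseh1 plus Supt6 go from 0.13 in the lowest bin to -0.38 in the highest, a smaller span than with Rnaseh1 alone (0.43 to -1.60).

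The NSN and SN oocytes, tabulated separately by the authors, give the Rnaseh1 effect on the same genes in staged oocytes without Supt6. Dtx2 had a log2 fold change of -0.995 in NSN oocytes, at 12.8 and 17.4 TPM with mCherry and 23.9 and 1.57 TPM with Rnaseh1, so the Rnaseh1 libraries lay on either side of the control. In SN oocytes it was -2.05, at 11.6 and 66.2 TPM with mCherry and 7.45 and 4.82 TPM with Rnaseh1, where mCherry replicate 2 stood far above the other. Mier2 had values of -0.87, at 5.25 and 4.38 TPM against 4.60 and 0.79 TPM, and -1.79, at 5.10 and 15.8 TPM against 3.34 and 0.96 TPM. In NSN oocytes the lower values of both genes came from Rnaseh1 replicate 2 alone. That library also stood apart from replicate 1 for Acot8 (0 against 14.67 TPM) and Asf1a (5511 against 1384 TPM). In SN oocytes mCherry replicate 2 did so for Plk1 (134.68 against 21.93 TPM). Neither did for Supt4a. Khdc3 was at -3.02 in NSN oocytes, at 918 and 642 TPM with mCherry and 362 and 23.8 TPM with Rnaseh1. In SN oocytes it was at -2.11, at 310 and 1022 TPM against 117 and 143 TPM. Setd2 was at -0.10 and 0.70. None of Dtx2, Mier2, Khdc3 and Setd2 passed the threshold there (limma adjusted p between 0.61 and 0.95). The overexpressed Rnaseh1 itself did not pass there either. Its log2 fold change was 1.76 in NSN and 3.55 in SN oocytes (limma adjusted p = 0.76 and 0.41). A missed threshold in the staged oocytes therefore does not show that a gene was unchanged. The control levels differed between the tables: Dtx2 lay between 11.6 and 66.2 TPM in the 4 mCherry libraries of the staged oocytes, and Khdc3 between 310 and 1022 TPM. Levels across separately normalized tables were not tested against each other.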

How the data were processed

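Polyadenylated RNA of mouse oocytes was reverse transcribed with SuperScript II, amplified with KAPA HiFi and, per the labels' protocols, made into libraries with Vazyme TD503. The authors deposited TPM values per gene and library. The submitters' processing notes name mm10, RSEM 1.3.3, STAR 2.7.0d, Trim Galore 0.6.7 and DESeq2 without roles. The unit carries no read depth, so neither a count test nor a counting error is given, and a gene that takes a larger share of a library lowers the others.

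Genes that reached 1 TPM in 2 or more of the 6 rescue libraries were fitted on log2(TPM + 1) with limma 3.58.1 (lmFit, contrasts.fit, eBayes with a trend) in R 4.3.3, with 1 mean per group and a shared spread. Fold changes are on that scale, which understates low genes. A gene was called, and said to rise or fall, at a Benjamini-Hochberg adjusted p under 0.05 over all 12859 genes. SE is the standard error from that fit. The NSN and SN libraries were fitted on their own table in the same way. Coordinates, transcript GC content and length came from GENCODE M21 (GRCm38), the longest transcript per gene.

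On simulated data with 200 changed genes of 12859, the test called 24.5% at a true log2 change of 1 and 79.5% at 2 in Rnaseh1 plus Supt6 against mCherry. The changed genes were drawn from those with a mean log2(TPM + 1) of at least 1. In the data 1711 genes were called, and the adjusted threshold depends on how many genes change. These shares therefore do not give the power of the test in the data.

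The genes named were the 6 given with the comparison, up to 10 per direction with the largest fold change among genes called (libraries not overlapping, mean TPM of at least 5 in the higher group, gene models left out), up to 5 per direction called only with Supt6 and up to 5 that moved back, and up to 4 per list by the smallest p; further list members were named after their values were seen, and a few genes the rule picks are not reported here. The members and lists were chosen with earlier results of these data known. Near-identical copies may share reads in RSEM estimates, and strand use is not stated. The replicate numbers did not pair the libraries, as the deviations of same-numbered libraries correlated at r = 0.00, 0.04 and -0.0005 over genes.

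Alternatives covered the scale (pseudocounts 0.1 and 5, median centring, quantile normalization, rescaling without Rnaseh1 and Supt6, a loess fit of span 0.5 to remove the GC trend), the genes tested (all genes, or 5 TPM as the minimum), the model (robust eBayes, the 4 libraries alone, a replicate block, a minimum log2 change of 1) and the libraries (each left out in turn).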

Additional observations from a re-analysis of the deposited data

How the results depend on the processing

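With 2 libraries per group and unknown depth, small changes were hard to detect. Leaving out 1 of the 4 libraries compared gave 24 to 127 genes higher and 41 to 132 lower in Rnaseh1 plus Supt6 against mCherry, and 63 to 238 genes that stayed changed, by construction with fewer samples and a lone sample assumed to vary like the other groups. Leaving out a library with Rnaseh1 alone gave up to 1005 higher, 1394 lower and 1926 that stayed changed. Without the filter there were 412 higher, 515 lower and 777 that stayed changed, over 21033 genes. Requiring a log2 change of 1 gave 96 higher, 487 lower and 504 that stayed changed, with 1614 higher in Rnaseh1 against mCherry and 1201 lower in Rnaseh1 plus Supt6 against Rnaseh1. Removing the GC trend gave 512 lower against mCherry with Supt6, 3614 lower with Rnaseh1 alone and 3207 higher in Rnaseh1 plus Supt6 against Rnaseh1; the cause was not tested. Median centring gave 4297 higher and 3894 lower in Rnaseh1 against mCherry, and 3370 and 3855 in Rnaseh1 plus Supt6 against Rnaseh1. Quantile normalization gave 4223 and 3958, and 3472 and 3747. Both scalings shift the median of all genes, which was -0.52 in the first and 0.44 in the second of these comparisons.

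As a share of the calls in Rnaseh1 plus Supt6 against mCherry, higher genes made up 42.9%, and 53.2% after median centring, 63.8% without the GC trend and 16.5% with a minimum log2 change of 1. The replicate number as a block gave 733 higher and 850 lower genes and 1340 that stayed changed. Of 100 named genes called, 93 kept their call under the block, and none of the 100 changed direction under any of the alternatives that gave it a value.

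The list of immediate-early and stress genes, at -0.08 from the median of all genes, turned to 0.036 with the filter of 5 TPM and to 0.056 without the GC trend. The list of oocyte-secreted factors and Kit, at -0.15, turned to 0.28 without the GC trend. The cause was not tested.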
